A study of Mus musculus with 6 samples.

Results

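The 39 Hox genes of the mouse, all protein-coding genes of RefSeq GRCm38 whose symbol is Hoxa, Hoxb, Hoxc or Hoxd followed by a number, were examined among 21887 protein-coding genes in OG2X129 mouse embryonic fibroblasts. Chromatin was profiled by CUT&Tag, in which an antibody-guided transposase cuts and tags DNA next to the antibody's target. Histone H3 acetylated at lysine 27 (H3K27ac), a mark of active promoters and enhancers, was profiled in 2 libraries of cells given CD and 2 of cells given DMSO, the vehicle. Flag-tagged Rxra was profiled in 2 libraries of cells that overexpressed it. The compound in the series title is CD3254, which activates retinoid X receptors, and all treatments belong to reprogramming towards chemically induced pluripotent cells. Which of CD or DMSO was given to the Flag-Rxra cells, the day of sampling, and the origin of replicates in separate or common cultures are not in the labels. The overexpressed, tagged receptor is a limit of the Flag-Rxra libraries as a model of the endogenous protein. The design text gives the purpose: finding where Rxra binds, and finding enhancers during reprogramming with and without CD.

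Hox genes encode homeodomain transcription factors that give cells a position along the body axis. They lie in 4 clusters, in which the order of the genes follows the order of their expression along the axis, and genes of the same number in different clusters are paralogs of common descent. In tissues where they are silent, Hox clusters are classic targets of Polycomb repressors, while Trithorax proteins keep them active. Retinoic acid, acting through heterodimers of retinoic acid receptors with retinoid X receptors such as Rxra, is a long-known inducer of the 3′ (anterior) Hox genes. Fibroblasts keep a Hox pattern that reflects the part of the body they came from.

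With 50 kb either side, the Hoxa cluster (mm10 chr6:52105367-52310880) holds 11 members, the Hoxb cluster (chr11:96144316-96418254) 10, the Hoxc cluster (chr15:102871131-103086856) 9 and the Hoxd cluster (chr2:74618225-74815142) 9. The median member spans 3737 bp, and 33 of 39 are shorter than 10 kb. The long spans of Hoxa3, Hoxb3 and Hoxd3 contain other members, so a peak may lie inside a pair of annotated genes at once. Each peak was assigned to every member that had an end within 1 kb, so 1 peak between close neighbours can count for both.

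Of the 4 peak lists used, each H3K27ac condition had 1 list for both of its replicates and each Flag-Rxra replicate had its own. The lists held 104437 CD and 75482 DMSO regions, and 28243 and 45999 Flag-Rxra peaks in replicates 1 and 2. They hold no read counts, so the depth behind a peak is unknown, and the absence of a peak means only that none was called. With 1 list a condition, no replicate error can be given for H3K27ac, and no test was made. With q the authors' false discovery rate of a peak, the lowest −log10 q was 1.00 in both H3K27ac lists and 5.00 in both Flag-Rxra lists. Among 11 fibroblast markers, 6 had a CD region and 5 a DMSO region within 1 kb of an end, Col3a1, Vim, Twist1 and Twist2 in both. Of 7 neural markers, 0 had a CD region and 1 a DMSO region. The same counts were 2 and 2 of 8 pluripotent, 3 and 1 of 6 macrophage, 3 and 1 of 6 epithelial, 0 and 3 of 4 endothelial, and 1 and 0 of 4 muscle markers. Over all protein-coding genes the shares were 38.3% in CD and 35.8% in DMSO. The CD counts of 6 of 11 fibroblast, 3 of 6 macrophage and 3 of 6 epithelial markers are of like share, so the labelled cell type could not be read from these regions alone.

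Sequences came from RefSeq (GRCm38.p6), which held promoters for 22 of 39 members, as 24 promoters of 300 bases, from 250 before to 50 after the gene start. The first set below shows the 250 bases before the start of the members whose promoter was overlapped by peaks of both Flag-Rxra replicates, Hoxa5 (chr6:52204588-52204837, minus strand) and Hoxd13 (chr2:74667975-74668224, plus strand). Capitals mark bases that lay inside a peak of replicate 1 and a peak of replicate 2.
Hoxa5: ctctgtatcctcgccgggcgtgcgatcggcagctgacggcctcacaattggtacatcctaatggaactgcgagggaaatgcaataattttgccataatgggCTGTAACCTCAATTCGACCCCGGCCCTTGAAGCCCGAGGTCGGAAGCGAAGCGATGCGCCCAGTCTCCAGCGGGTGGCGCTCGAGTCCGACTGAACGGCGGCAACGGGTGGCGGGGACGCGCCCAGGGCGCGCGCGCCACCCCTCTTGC
Hoxd13: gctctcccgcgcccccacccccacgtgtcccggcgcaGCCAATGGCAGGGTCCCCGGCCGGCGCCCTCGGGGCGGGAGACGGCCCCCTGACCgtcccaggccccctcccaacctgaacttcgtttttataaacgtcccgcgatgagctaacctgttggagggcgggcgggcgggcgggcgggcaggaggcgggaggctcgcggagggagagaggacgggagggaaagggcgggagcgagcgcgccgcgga

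In Hoxa5 both replicates covered 149 of the 250 bases, up to the gene start. In Hoxd13 they covered 55 bases, away from the start. The second set shows every member promoter that held AGGTCA, the half-site bound by many nuclear receptors, on either strand. Each line gives 30 bases of the gene's strand, with the match (AGGTCA or its complement TGACCT) in capitals.
Hoxa5: agtgcacgagtttacctctagAGGTCAtca
Hoxb4: tcagcgcccctaTGACCTagtgggtaccca
Hoxc4: ggcgctgccctgTGACCTacacagactgca
Hoxd3: tagacctttttaTGACCTatttgcggtcgt
Hoxd4: ttgatatgaataTGACCTctctcgcattct
Hoxd8: ttcgctttgataAGGTCAggattcggaggc
Hoxd10: ctggggaacacgTGACCTgcaaggaggctg

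The half-site was found in 7 of 24 member promoters, compared with 14.7% of 21263 promoters of protein-coding genes of the same 300-base length. The Hoxa5 match, 41 bp after the gene start, lay inside the peaks of both replicates. None of the other 6 lay in a Flag-Rxra peak, and the nearest was 92 bp away in replicate 1 and 573 bp in replicate 2 at Hoxd10. At Hoxc4 these distances were 4539 and 3749 bp, and at Hoxb4 5931 and 5828 bp. The replicates differed more at Hoxd8 (12750 and 5858 bp), Hoxd3 (20102 and 3280 bp) and Hoxd4 (30103 and 6588 bp). Direct repeats of the half-site AGGTCA on the same strand, with 1, 2 or 5 bases N between (DR1, DR2 and DR5), the spacings known for retinoid receptor dimers, were found in 0 of 24 member promoters. They were almost as rare elsewhere, at 0.047%, 0.0% and 0.0047% of all promoters. The letters TGANTCA, the core of the AP-1 site, occurred in 1 member promoter, that of Hoxd11, against 6.99% of all. Direct repeats and half-sites overlap as motifs, and a match describes letters only. Median GC content was 57.7% in the member promoters and 56.3% in all.

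The clusters also hold microRNAs, between or inside the members, which pair with target messages through the seed (bases 2 to 8); Hox messages are known targets of miR-10 and miR-196. Their 5p arms are shown with the seed in capitals because the same seed recurs in different clusters.
miR-10a-5p: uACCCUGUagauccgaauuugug
miR-10b-5p: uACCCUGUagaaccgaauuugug
miR-196a-5p: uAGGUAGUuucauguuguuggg
miR-196b-5p: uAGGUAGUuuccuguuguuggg
miR-615-5p: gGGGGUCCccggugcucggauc

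The miR-10 pair shared the seed ACCCUGU and the miR-196 pair the seed AGGUAGU, across different clusters. Mir615, inside Hoxc5, lay 328 bp from the peak with the highest replicate 1 fold of any shared peak in the clusters, with folds of 13.5 and 13.8. Mir196a-1, between Hoxb13 and Hoxb9, lay inside a CD region of fold 2.86 and 3483 bp from a DMSO region. The other copy of miR-196a, Mir196a-2 in the Hoxc cluster, was 370 bp from a CD region and 5406 bp from a DMSO region. Mir196b, between Hoxa9 and Hoxa10, was 305 bp from a DMSO region and 2990 bp from a CD region. Mir10a was 753 bp from a DMSO and 1047 bp from a CD region, and Mir10b 1229 and 2173 bp. No shared Flag-Rxra peak came closer than 3413 bp to the 5p arm of any of these microRNAs other than miR-615.

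Overlapping Flag-Rxra peaks of both replicates lay near 8 Hox genes, 4 of them in the Hoxa cluster, and no Flag-Rxra peak of either replicate lay within 1 kb of 19 members, or 48.7%, close to the 50.5% of all protein-coding genes. A replicate 1 peak was found at 14 of 39 members (41.7% of all protein-coding genes had one) and a replicate 2 peak at 15 (42.1% of all). A shared peak, a replicate 1 peak that overlapped a replicate 2 peak by at least 1 bp, was found at 8 members, or 20.5%, against 32.6% of all protein-coding genes. A replicate 1 peak without a shared peak was present at 6 members (9.09% of all genes), and a replicate 2 peak without one at 7 (9.77% of all). Hoxa4 was counted in both, with peaks of each replicate that did not overlap. Using 1 replicate only, the count was 15 without replicate 1 and 14 without replicate 2, and it was 4 when a −log10 q of 20 was required of both (24.2% of all genes). With a window of 2.5 kb it was 14, or 35.9%, against 37.0% of all genes, so the lower share of the members was seen in the narrower window and not in this one.

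The members with a shared peak included Hoxa5, Hoxa6, Hoxa9, Hoxb9, Hoxc5, Hoxc10 and Hoxd13, and the 8 were served by 7 distinct peaks. By cluster they were 4 of 11 in Hoxa, 1 of 10 in Hoxb, 2 of 9 in Hoxc and 1 of 9 in Hoxd. By position they were 1 of 12 anterior genes (numbers 1 to 4), 3 of 11 central genes (5 to 8) and 4 of 16 posterior genes (9 to 13), where 32.6% of all genes had one. Within single replicates the positions were closer: replicate 1 had a peak at 4 of 12 anterior, 4 of 11 central and 6 of 16 posterior genes, and replicate 2 at 3, 5 and 7.

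**Figure D1:**
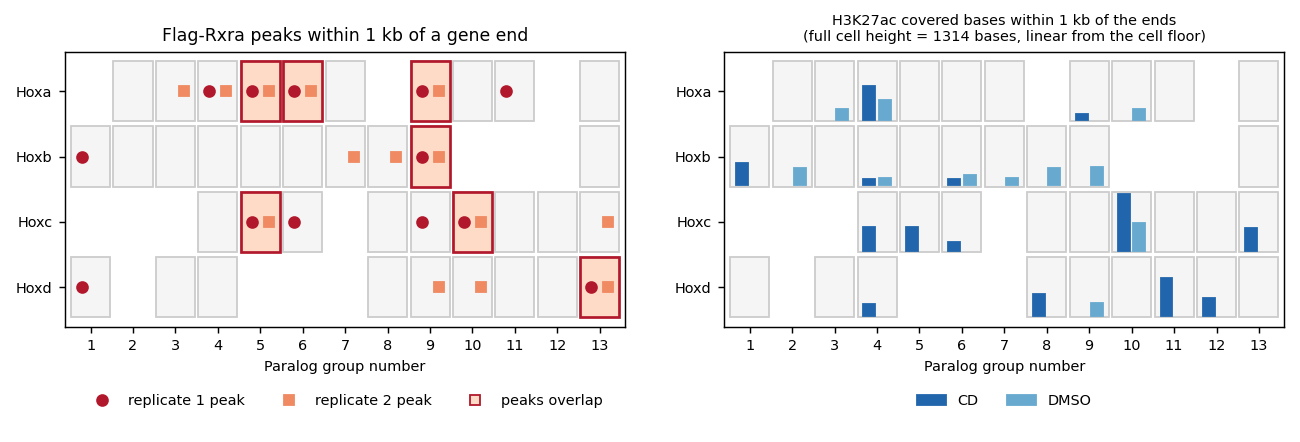
Left, Hox genes by cluster (rows) and paralog number (columns), with a circle for a Flag-Rxra replicate 1 peak within 1 kb of an end and a square for a replicate 2 peak. A filled frame marks a gene with a shared peak within 1 kb. At Hoxa9 the square is another replicate 2 peak (fold 3.45), which the replicate 1 peak does not overlap. Right, bases within 1 kb of the ends covered by H3K27ac regions in CD and DMSO, as bars on a common linear scale; blank positions have no gene or are not shown. The 7 framed cells include 3 in Hoxa, and the CD bars cluster in Hoxc and Hoxd while Hoxb has more DMSO bars.

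Hoxa5, which acts in lung and axial skeleton development, had a shared peak over its promoter at chr6:52204463-52204782. This peak also counted for the neighbour Hoxa6, through the 3′ end of that gene, and did not overlap the Hoxa6 promoter. Its fold was 8.15 in replicate 1 and 14.7 in replicate 2, with −log10 q of 63.3 and 89.2. The replicate 1 summit stood 111 bp before the Hoxa5 start, within the capitals of the sequence above. The replicate 2 summit stood 35 bp inside the gene, beyond the printed bases of that sequence. By q the peak stood at the 89.2 percentile of the replicate 1 list and the 94.4 percentile of the replicate 2 list. By fold it stood lower, at the 40.0 and 73.0 percentiles. No H3K27ac region lay within 1 kb of either gene in CD or DMSO, and the nearest was a DMSO region 4267 bp from the peak.

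Hoxa9, a posterior gene also known for its part in leukaemia, had a shared peak beyond its 3′ end at chr6:52221701-52222385. Its fold was 10.4 in replicate 1 and 17.0 in replicate 2, with −log10 q of 106 and 131. The replicate 1 peak lay 712 bp from the gene, with its summit 1245 bp away. The replicate 2 peak that it overlapped lay 1119 bp away, so Hoxa9 was counted through replicate 1 coordinates. This shared peak was the only one of the 22 in the clusters to overlap H3K27ac regions in both conditions. The DMSO region there was 610 bp wide (chr6:52221368-52221977, fold 3.15), the widest DMSO region of the Hoxa cluster.

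Hoxb9, a posterior trunk gene, had a shared peak 604 bp inside its end (chr11:96271934-96272329), with folds of 6.57 and 6.96 that differed little between replicates. Hoxc5 had one 106 bp inside its end (chr15:103014114-103014598), with folds of 13.5 and 13.8 and −log10 q of 104 and 64.7. This was the strongest shared peak of the 4 clusters by replicate 1 fold, and its replicates nearly coincided. Hoxc10, a gene of the hindlimb and lumbar region, had one 233 bp away (chr15:102966373-102966563) whose folds diverged, 4.94 in replicate 1 and 21.0 in replicate 2. The first was at the 4.07 and the second at the 91.7 percentile of its list, so the same position was among the weakest peaks of one replicate and among the strong ones of the other.

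Hoxd13, the most posterior Hoxd gene, which patterns digits, had a shared peak 22 bp from the gene (chr2:74668012-74668203). Its fold was 9.03 in replicate 1 and 8.09 in replicate 2, with −log10 q of 30.2 and 19.7. The replicate 1 summit lay 168 bp before the start. At a −log10 q of 20 in both replicates, Hoxa5, Hoxa6, Hoxa9 and Hoxc5 remained.

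Across the clusters with 50 kb either side, 892097 bp in all, 22 shared peaks were found: 9 in Hoxa, 5 in Hoxb, 6 in Hoxc and 2 in Hoxd. Of these, 12 lay inside a member, 4 between members, 1 in the flank of lower and 5 in the flank of higher coordinates, and 15 were farther than 1 kb from any member's end. The density was 24.7 shared peaks per Mb, compared with 9.39 per Mb over all protein-coding genes with the same flanks. Replicate 1 gave 51.6 against 14.9 per Mb, and replicate 2 gave 68.4 against 23.5. The clusters are gene-dense, however, with 45.96 protein-coding genes per Mb against 12.98. Counted per gene, they held 0.537 shared peaks against 0.724, and 1.12 against 1.15 peaks in replicate 1 and 1.49 against 1.81 in replicate 2. The clusters therefore stood above all genes per Mb and below them per gene.

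**Figure D2:**
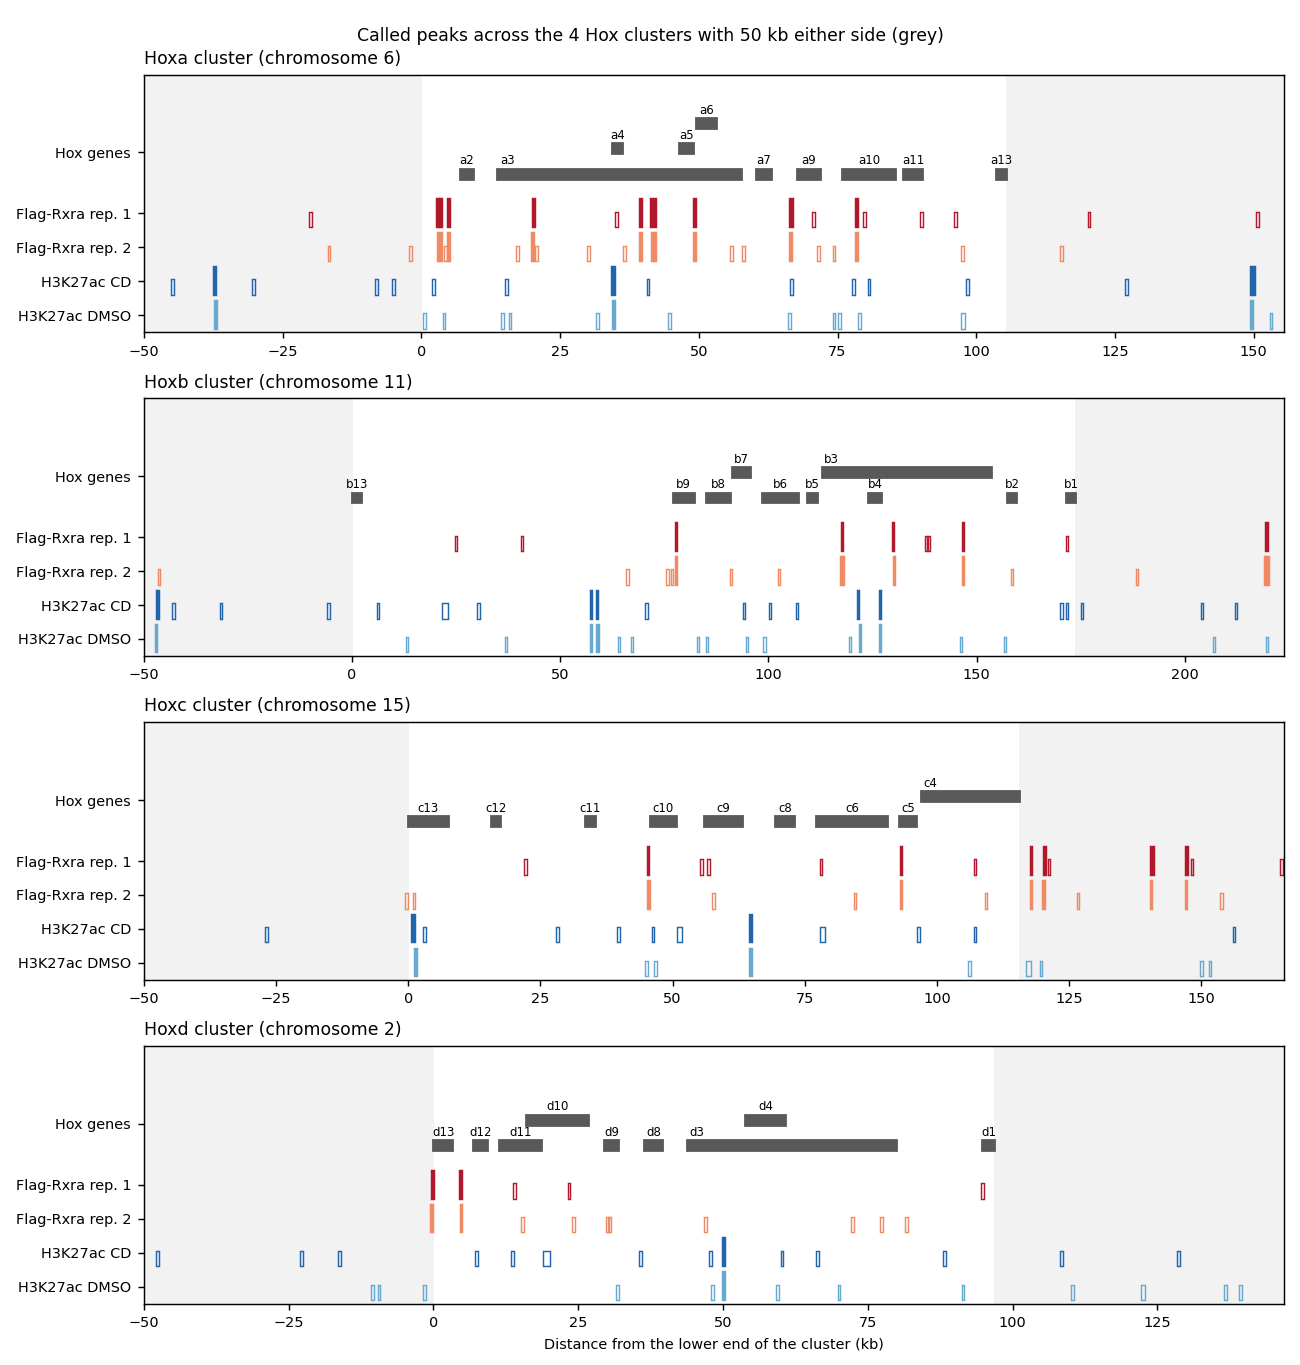
Genes and called peaks along each Hox cluster, in kb from the lower end of the cluster, with the 50 kb flanks in grey. Not every member is drawn. Tall filled marks overlap a peak of the other Flag-Rxra replicate or the other H3K27ac condition and short open marks do not; marks have a minimum drawn width. All 9 shared Flag-Rxra peaks of Hoxa lie within the cluster, while 4 of the 6 of Hoxc lie in the flank beyond Hoxc4.

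The Hoxa cluster proper, 105.5 kb, held all 9 of its shared peaks, or 85.3 per Mb, and its flanks held 0. The peak at chr6:52196666-52197635 lay inside the annotated Hoxa3 span, 4119 bp from Hoxa5. Its fold was 10.4 in replicate 1 and 17.3 in replicate 2, and its −log10 q of 246 and 311 was the highest of the 22 shared peaks of the clusters in both replicates. Another peak in the Hoxa3 span, chr6:52175249-52175790, had folds of 9.33 and 9.35 and −log10 q of 147 and 92.6. Hoxa3 and Hoxa10 thus had shared peaks inside their annotated spans without one within 1 kb of an end.

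In the Hoxb cluster, the strongest 3 peaks by replicate 1 fold were none of them near a member's end. The peak at chr11:96413592-96414246, 45338 bp beyond Hoxb1, had folds of 8.97 and 12.6. That at chr11:96340960-96341264, inside Hoxb3, had 8.87 and 14.1, and that at chr11:96324122-96324407, also inside Hoxb3 and 2484 bp from Hoxb4, had 7.99 and 9.17. In the Hoxc cluster, a group of 4 shared peaks lay in the flank beyond Hoxc4. The nearest, chr15:103038793-103039135, stood 1937 bp from Hoxc4 with folds of 9.87 and 13.3, and chr15:103061471-103062131 stood 24615 bp away with 8.12 and 12.1. The Hoxd cluster had the fewest, the Hoxd13 promoter peak and chr2:74672769-74673141, between Hoxd13 and Hoxd12, with folds of 7.76 and 10.7. At 10.2 per Mb the density of the Hoxd cluster was close to the 9.39 of all genes, while Hoxa with flanks had 43.8. These are densities per Mb only, and single clusters were not counted per gene.

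**Figure D3:**
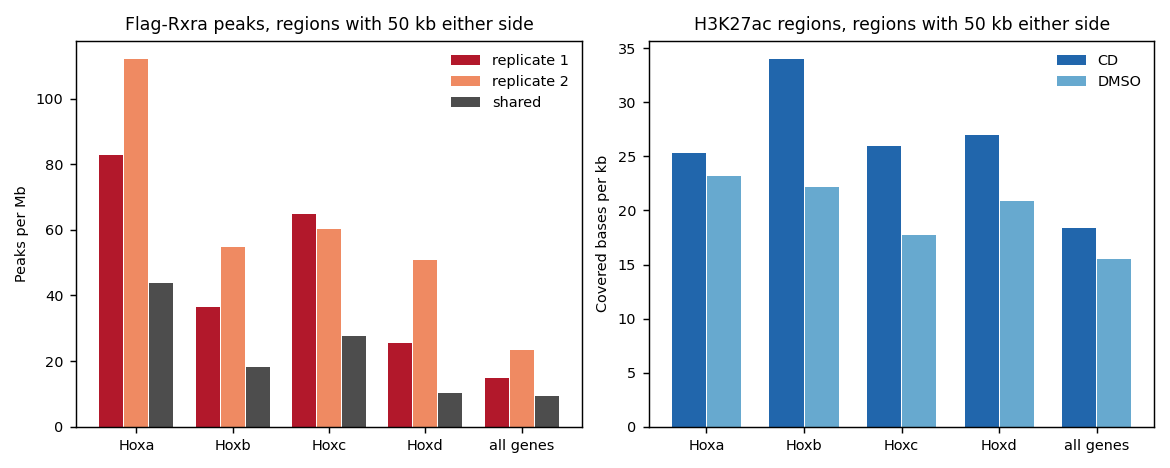
Left, Flag-Rxra peaks per Mb in each Hox cluster with 50 kb either side, for replicate 1, replicate 2 and the shared peaks. Right, bases covered by H3K27ac regions per kb of the same windows in CD and DMSO; the last group is all protein-coding genes with 50 kb either side. Hoxa has the highest density of shared peaks (43.8 per Mb) and Hoxd the lowest (10.2), and each cluster has more covered bases in CD than in DMSO.

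Of 46 replicate 1 peaks in the clusters, 22 overlapped a replicate 2 peak, or 47.8%, against 62.4% of all replicate 1 peaks. In the other direction the shares were alike, 25 of 61 replicate 2 peaks, or 41.0%, against 40.5%. The folds of the 22 shared peaks ran from 3.50 to 13.5 in replicate 1 (median 7.88) and from 5.00 to 21.0 in replicate 2 (median 10.3). The median over all shared peaks was 10.3 in replicate 1. Fold was higher in replicate 2 at 20 of 22, where the highest-fold partner was taken, and the replicate 2 list as a whole also had the higher median fold, 10.8 against 9.03. By −log10 q the peaks stood higher in their lists than by fold. The median percentile was 36.2 for fold and 70.5 for q in replicate 1, and 46.0 and 83.8 in replicate 2. A −log10 q of 20 was reached by 18 of the 46 replicate 1 peaks of the clusters (52.4% of the whole list) and 33 of the 61 replicate 2 peaks (51.7%). At a −log10 q of 50 they were 6 (16.1%) and 12 (16.0%). Of the 22 shared peaks, 5 reached the list's median fold in replicate 1 and 10 in replicate 2, while 15 and 17 reached the median −log10 q. These counts were not made over all shared peaks. The median −log10 q in replicate 1 was 33.0 in the 22, 30.2 over all shared peaks and 21.1 over the whole list. In replicate 1 the high standing by q was thus close to that of shared peaks in general. In replicate 2 the median −log10 q was 49.7 in the 22 and 20.7 over the whole list. It was not taken over all shared peaks in replicate 2.

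**Figure D4:**
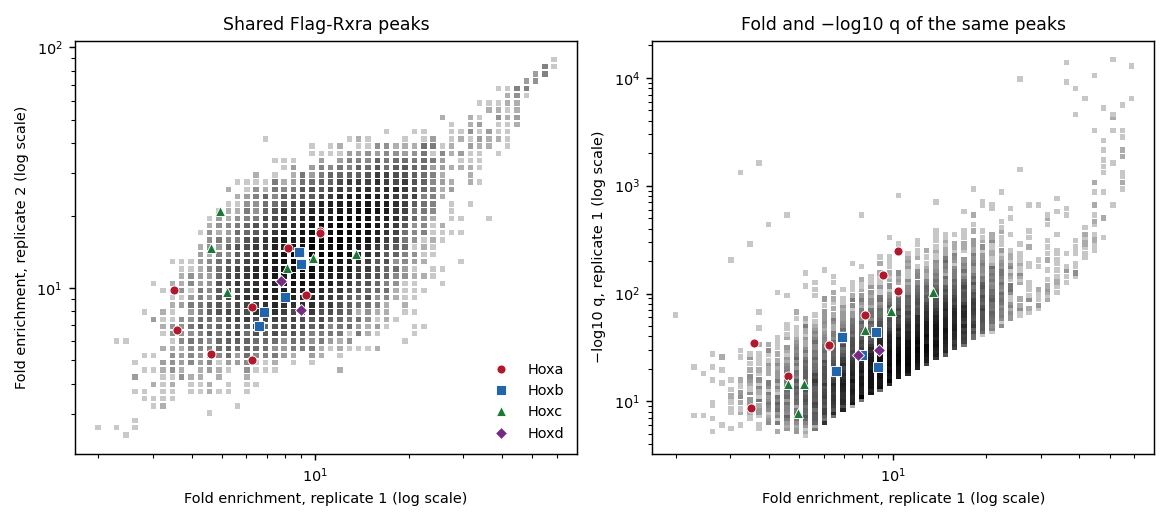
Left, fold enrichment of each shared Flag-Rxra peak in replicate 1 (horizontal) and replicate 2 (vertical); right, fold and −log10 q in replicate 1; all axes are logarithmic. Coloured symbols are the 22 peaks of the Hox clusters, grey squares the binned values of all 17623 shared peaks, darker where more peaks fall. The Hox peaks sit in the lower and middle range of fold (3.50 to 13.5 in replicate 1) and towards the upper edge of −log10 q for their fold.

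Acetylated regions were called near similar numbers of Hox genes in both conditions, but mostly near different ones. A CD region lay within 1 kb of an end at 14 of 39 members (38.3% of all protein-coding genes) and a DMSO region at 12 (35.8% of all). Both conditions marked only Hoxa4, Hoxb4, Hoxb6 and Hoxc10, 4 members or 10.3%, against 21.2% of all genes. The CD and DMSO regions overlapped each other at Hoxa4 and Hoxb4, and lay apart at Hoxb6 and Hoxc10. CD alone marked 10 (17.1% of all) and DMSO alone 8 (14.7% of all). A region of either condition was near 22 members (53.0% of all genes), which left 17 with none. A peak of any of the 4 lists was near 29 members (64.5% of all), which left 10 with none.

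These regions were weak, but so were most regions of both lists. The median −log10 q in the clusters with flanks was 1.42 in CD and 1.43 in DMSO, against 1.39 and 1.5 over the whole lists. The best −log10 q near a member was between 1.11 and 2.52 in CD and between 1.06 and 1.90 in DMSO. Across the clusters with flanks, 9 of 61 CD regions reached a −log10 q of 2 (13.8% of the whole list), and 7 of 55 DMSO regions did (18.3%). At a −log10 q of 5 there were 0 in both, where the whole lists had 0.652% and 0.955%. Of the 61 CD regions 11 overlapped a DMSO region, or 18.0% against 13.9% of all CD regions, so low overlap between the conditions was not limited to the Hox clusters. Requiring a −log10 q of 2 left 3 members with a CD region (6.65% of all genes) and 0 with a DMSO region (8.84% of all genes).

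More bases near the ends were covered in CD than in DMSO at 12 members (26.2% of all genes) and fewer at 10 (26.7% of all), with 17 equal. Summed over the members, 6524 bases were covered in CD and 3943 in DMSO, a mean of 167 and 101 per gene against 171 and 191 over all protein-coding genes. The clusters differed in direction. In Hoxc 5 members had more in CD and 0 in DMSO (2923 and 604 bases), and in Hoxd 4 and 1 (1991 and 289 bases). In Hoxb 1 member had more in CD and 6 in DMSO (753 and 1692 bases), and in Hoxa 2 and 3 (857 and 1358 bases). Neighbouring members can share a region, and with 1 list a condition these differences have no replicate check. By position, anterior genes had more in CD at 4 and in DMSO at 4, central genes at 3 and 3, and posterior genes at 5 and 3.

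Among Hoxc genes, Hoxc10 had the most covered bases of all members, 1228 in CD and 604 in DMSO. The CD region just beyond it (chr15:102972012-102972995) was 984 bp wide with a fold of 2.77. Hoxc4 and Hoxc5, neighbouring trunk genes, shared 1 CD region (chr15:103017414-103017922) of 509 bases and had 0 in DMSO. Among Hoxd genes, Hoxd11, a gene of the forearm and posterior spine, had 837 bases in CD and 0 in DMSO. They came from a 1213 bp region inside the annotated Hoxd10 span (chr2:74687180-74688392, fold 3.68), one of the few with a −log10 q over 2, at 2.15. Hoxd8 had 481 bases in CD and 0 in DMSO, and Hoxd12, a digit gene, 402 and 0.

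Hoxb members leaned the other way. Hoxb9 had 0 bases in CD and 395 in DMSO, and Hoxb8, a trunk gene also active in blood progenitors, 0 and 383. Hoxb1, the hindbrain gene at the 3′ end of the cluster, was the exception with 485 in CD and 0 in DMSO. In Hoxa, Hoxa10, a gene of the uterus and hindlimb, had 0 in CD and 235 in DMSO. Hoxa4 had a region in both, 732 bases in CD and 440 in DMSO.

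Over the clusters with flanks, covered length was greater in CD in each: 5190 against 4760 bases in Hoxa, 9324 against 6079 in Hoxb, 5599 against 3817 in Hoxc and 5312 against 4121 in Hoxd. This came to 28.5 bases per kb in CD and 21.0 in DMSO, compared with 18.4 and 15.5 over all protein-coding genes with flanks. Counted per gene, these gene-dense windows held fewer regions, 1.49 in CD and 1.34 in DMSO, against 3.91 and 2.87 over all genes. The CD list was the longer one throughout the genome, and cutting it by q to the length of the DMSO list turned the Hoxa difference from 430 to −919 bases while the other 3 stayed positive. Leaving out the flanks turned it to −1196. At a −log10 q of 2 the Hoxb difference was −241 and the Hoxc difference −294 bases.

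Several of the widest regions lay between members or in the flanks. In Hoxb the widest was a CD region of 1381 bp between Hoxb13 and Hoxb9 (chr11:96215965-96217345, fold 3.20), with no DMSO region over it. A DMSO region of 795 bp (chr11:96252874-96253668, fold 2.65) stood farther towards Hoxb9 and overlapped a CD region. Beyond Hoxa13, chr6:52304738-52305632 was called in CD at 895 bp with a fold of 4.45 and −log10 q of 3.13, the highest CD value of the clusters, and overlapped a DMSO region. In Hoxc, a DMSO region of 910 bp (chr15:103038035-103038944, fold 3.51) lay 1179 bp beyond Hoxc4, over the shared Flag-Rxra peak there, with no CD region. In Hoxd, a DMSO region of 766 bp (chr2:74790376-74791141, fold 3.89) lay 25234 bp beyond Hoxd1.

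Most shared Flag-Rxra peaks of the clusters lay outside acetylated regions. An H3K27ac region of either condition overlapped 4 of 22 peaks, or 18.2%, against 45.9% of all 17623 shared peaks. A CD region overlapped 1 (26.9% of all) and a DMSO region 4 (34.4% of all). These were the peaks near Hoxa9 and Hoxc10, that beyond Hoxc4 and that 45338 bp beyond Hoxb1. The median distance from a shared peak of the clusters to the nearest region was 3115.5 bp in CD and 1406.5 bp in DMSO. These distances were not taken over all shared peaks. At gene level, 5 of the 39 members, or 12.8%, had both a shared peak and an H3K27ac region within 1 kb (26.8% of all genes). At Hoxa5, Hoxa6 and Hoxd13 there was none. At the promoters themselves, a shared peak overlapped 2 of 24 member promoters against 29.0% of all promoters. A replicate 1 peak overlapped 6 (35.4% of all) and a replicate 2 peak 3 (32.9% of all), and a CD or DMSO region overlapped 0 of 24 in each list (15.1% and 17.8% of all).

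The other genes of the Hox pathway were read by the same window. Of 9 Hox cofactors, homeodomain partners that bind DNA with Hox proteins, 5 had a shared Flag-Rxra peak, with Pbx3 and Meis2 among them, 7 a CD region (38.3% of all genes) and 2 a DMSO region (35.8% of all genes). Of 16 upstream genes, such as retinoid receptors, retinoic acid degrading enzymes and Cdx factors, 4 had a shared peak: Cyp26a1 and Cyp26b1, which degrade retinoic acid, Rxrb and Gli3. CD regions were found at 8 of these 16 and DMSO regions at 6. Polycomb genes had a shared peak at 12 of 20, among them Ezh2, Eed and Suz12 of the repressive complex that methylates lysine 27, and Trithorax and elongation genes at 8 of 15, among them Men1 and Kmt2b. A list of neighbour genes of the clusters, outside the Hox family, had a shared peak at 16 of 23 matched. This list was not limited to the 50 kb flanks, as the 4 windows held 41 protein-coding genes with the 39 members included. CD and DMSO regions were found at 8 and 6 of the 20 Polycomb genes and 7 and 9 of the 15 Trithorax and elongation genes. At the 23 neighbour genes they were found at 9 and 10. These counts stand against 32.6% of all genes for a shared peak, and the lists are described by them alone. A list of 28 other homeobox genes of limb, trunk and mesenchyme had a shared peak at 4 of 28 (Dlx2, Msx1, Irx3 and Irx5), or 14.3%, with 6 CD and 6 DMSO regions.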

How the data were processed

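CUT&Tag was made on 6 libraries, 2 each of H3K27ac with CD, H3K27ac with DMSO and Flag-Rxra. Build mm10 and the tools MACS2 2.1.2, Bowtie2 2.2.5, deepTools 3.4.3 and fastp 0.20.1 come from the submitters' processing notes, which give them no role. The sources used here do not give the use of a control library or the way H3K27ac replicates were pooled. The deposited peak lists, broad for H3K27ac and narrow for Flag-Rxra, give each peak's score, its fold enrichment (a ratio to the peak caller's background), its −log10 p and −log10 q (a p-value adjusted for false discovery) and, for Flag-Rxra, the summit offset, all as the authors' values. Fold and −log10 q were both used to describe and rank peaks within a list, and −log10 q also to filter them. The score and −log10 p were not used further. Broad and narrow lists are not on a common scale. Each Flag-Rxra list was assigned to its sample by the deposit's description, although its peak names hold codes that differ from the titles.

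The autosomes, X and Y were used, and peaks were compared with RefSeq GRCm38 genes in Python 3.11.15 with numpy 2.4.6, pandas 2.3.3 and matplotlib 3.10.9, and the overlap code was checked on simulated peaks with known overlaps. A gene was counted when a peak reached within 1 kb of an end, and a shared peak is a replicate 1 peak overlapping a replicate 2 peak by 1 bp. Members named with values had a shared peak or were among the 3 with the most covered bases in their cluster. Those among the 3 with the largest difference in each direction were named as well. Up to 3 shared peaks of each cluster, the strongest by replicate 1 fold, were named too. Of the 3 widest regions of each cluster in each list, only some were named. Other peaks singled out were chosen after their values were seen. Motifs were counted over 300-base promoters on both strands. Results for some genes that meet this rule are not reported here. No statistical test was made on the data. The members, lists and motifs were chosen with earlier results of these data known. Alternatives were other windows, overlaps, q cuts, lists of equal length, clusters without flanks and each Flag-Rxra replicate left out.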

Additional observations from a re-analysis of the deposited data

How the results depend on the processing

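The count of 8 Hox genes with a shared Flag-Rxra peak became 4 with a −log10 q of 20 in both replicates (24.2% of all genes), 5 with an overlap of 50% of both peaks (20.2%), 14 with a window of 2.5 kb (37.0%) and 3 of 22 at the 5′ end only (34.3%). Leaving out 1 Flag-Rxra replicate gave 14 to 15. The 22 shared peaks became 14 with a −log10 q of 20 and 14 with an overlap of 50%, and 46 to 61 when 1 replicate was left out. A window of 500 bp and replicate 2 coordinates (added after seeing the data) kept both within 1.5 times where they applied. Removal of peaks in the strongest H3K27ac regions could not test either count, because it took out 0 shared peaks of the clusters. Its −log10 q limit was 100, while the highest value in the clusters was 3.13 in CD and 3.34 in DMSO.

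CD regions near an end fell from 14 members to 5 of 22 at the 5′ end only (32.5% of all genes) and to 3 with a −log10 q of 2 (6.65%). For DMSO, 12 became 19 with a window of 2.5 kb (49.4%), 1 of 22 at the 5′ end only (32.2%) and 0 with a −log10 q of 2 (8.84%). The covered length in CD minus DMSO, as deposited 430 (Hoxa), 3245 (Hoxb), 1782 (Hoxc) and 1191 (Hoxd), became 833, −241 and −294 in the first 3 with a −log10 q of 2. With lists of the same covered length it was −919 in Hoxa, 798 in Hoxc and 292 in Hoxd, and without flanks −1196, 1389, 3153 and 2030 in the same order as above. Weighted by fold it was 2483, 10851, 5258 and 4244. The cause of these shifts was not tested. No paired analysis was possible because the H3K27ac replicates of a condition share 1 list and no result comes from a test. Peak lists without read counts give no depth, so a missing peak cannot be told from a shallow library.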
